A study of Homo sapiens with 6 samples.

Results

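The genes described here are 36 human genes of homologous recombination, the Fanconi anaemia pathway, the DNA damage checkpoint and mismatch repair, chosen by name from what each is known to do, with earlier results of these data known. All 36 have a row among the 54261 genes of the count table. The study knocked down SNHG17, a long noncoding RNA that hosts small nucleolar RNAs, in A549 cells, a human lung cancer cell line, and sequenced total RNA on an Ion Proton instrument as single-end reads. There were 3 libraries labelled si-SNHG17, whose genotype is given as SNHG17 knockdown, and 3 control libraries labelled si-NC. Every library comes from the same line in the same serum-containing medium, and the sources used here give no time, dose or sequence for the interfering RNAs. The labels call the libraries repeats and do not say whether they came from separate cultures, so a p-value here reflects only how far these libraries spread, and that spread may be technical.

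Homologous recombination mends a broken chromosome by copying an intact sister. The ends are trimmed to single strands, BRCA1, PALB2 and BRCA2 load the recombinase with help from its paralogues, and the joined molecules are pulled apart by the BLM helicase complex. The Fanconi pathway uses a multi-subunit ubiquitin ligase to mark the FANCD2-FANCI clamp at crosslinked DNA and then hands the break to recombination, while ATM and ATR signal the damage through CHEK2 and CHEK1. Mismatch repair removes copying errors behind the replication fork, and many of these genes are transcribed mainly as cells enter S phase.

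Most of these genes were lower in the si-SNHG17 libraries. Of the 36 members, 35 had enough counts to be tested, 20 of them were lower and 2, NBN and FANCF, were higher (edgeR's quasi-likelihood test, Benjamini-Hochberg adjusted p under 0.05 over the 15614 genes tested), and 13 did not pass. That is 57.1% of the tested members lower, against 19.6% of all genes tested, and 5.71% higher, against 19.6% of all genes tested. The median log2 fold change was -0.48 over the tested members and 0.01 over all genes tested, and 31 of the 35 fitted values were negative. The changes were mostly under 2-fold. RAD51AP1, RAD51D, FANCD2 and CLSPN were the 4 members both past the threshold and at least 2-fold lower, and 4.92% of all genes tested were. Levels are given below in CPM, the counts of a library brought to a common total and scaled for composition. In 21 members every si-SNHG17 library lay below every si-NC library, in 2 above, and in the other 13 the groups overlapped. Among all genes tested the groups lay apart in the lower direction for 24.3% and in the higher direction for 25.1%. The summed level of the 36 members was 728.0, 745.8 and 739.1 CPM in the si-SNHG17 libraries and 1018, 1028 and 923.7 CPM in the controls.

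**Figure D1:**
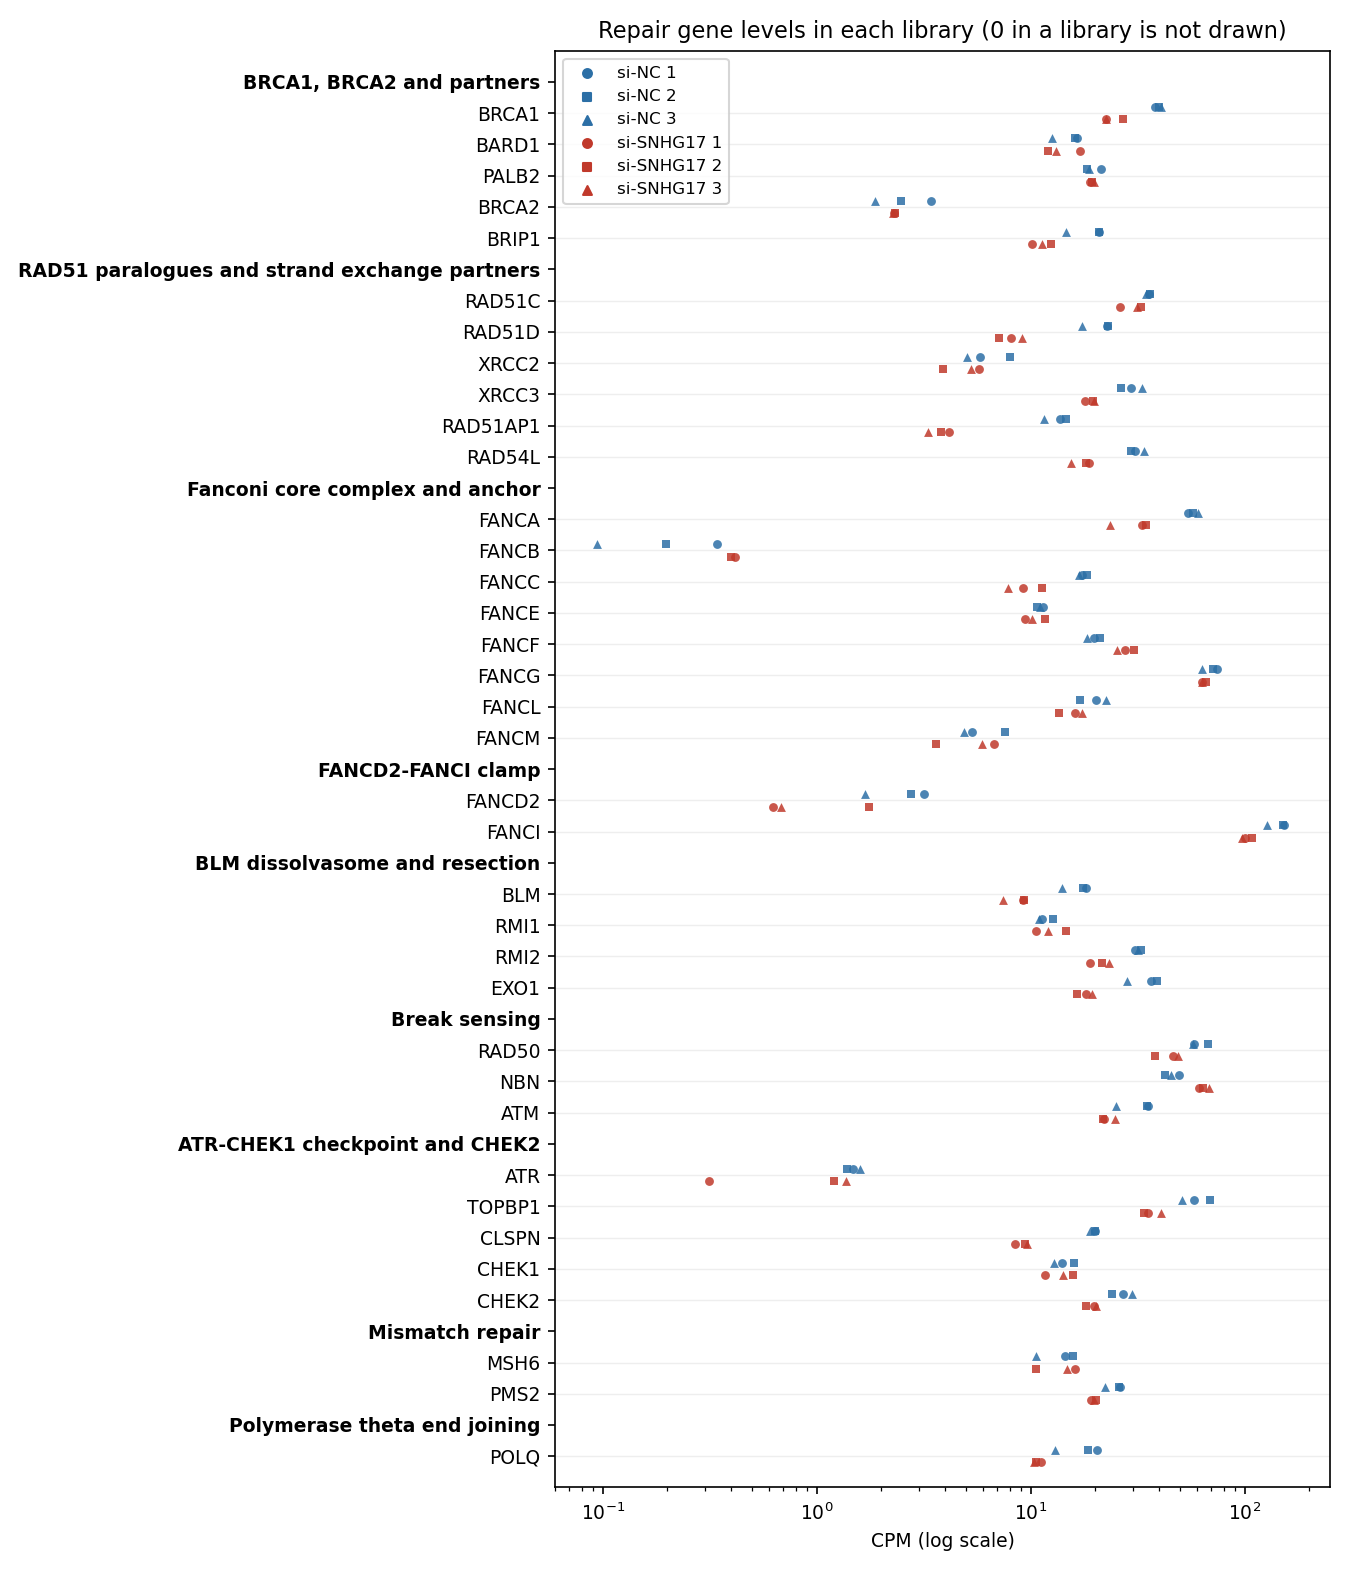
Level of each of the 36 members in the 6 libraries, in CPM on a log axis, grouped by role; each point is 1 library. The si-SNHG17 points lie to the left of the si-NC points, without overlap, in 21 members, and to the right in NBN and FANCF.

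The library totals ran from 8643076 to 12477214 counts. SNHG17 itself was at 7.82, 8.39 and 11.3 CPM in the si-SNHG17 libraries and 38.7, 36.2 and 51.4 CPM in the si-NC libraries, which is 21.8% of the control mean (log2 fold change -2.21, SE 0.167, edgeR adjusted p = 2.84e-07; exact two-sided permutation p = 0.1, the smallest that 3 against 3 allows). The third si-NC library stood apart from the other controls, with a chi-square of at least 8.40 per degree of freedom against each of them, while the other two differed from each other by 2.25. It had the lowest control value in 14 of the 20 members that were lower. Without that library 20 members were again lower and 2 higher, and 6 in place of 4 were at least 2-fold lower. The mitochondrially encoded share of the counts was 4.16% to 4.53% in the si-SNHG17 libraries and 7.25% to 8.07% in the si-NC libraries, and its part in the results was not tested; with those genes left out 22 members were called, as with them. Of 9 markers of a lung epithelial line 6 could be tested, 3 were lower and 2 higher: the keratins KRT8 and KRT18 went from 4257 to 2530 CPM and from 4355 to 2280 CPM, and KRT7 from 4086 to 4944 CPM. The summed level was 9730 to 10351 CPM in si-SNHG17 and 12123 to 14189 CPM in si-NC; NKX2-1, SFTPB and SFTPC were too low to test. Of 12 immune markers 4 could be tested, PTPRC, CD3E, CD3D and MS4A1 had no count in any library, and the summed level was 500.3 to 599.6 CPM in si-SNHG17 against 213.4 to 298.8 CPM in si-NC, most of it CD68, a lysosomal protein. Among the immune markers tested, CD68 and ITGAM were higher, CD14 was lower at 19.6 CPM against 36.1 CPM, and CD79A was not called. The 12 stromal and endothelial markers summed to 54.4 to 62.6 CPM in si-SNHG17 and 57.2 to 66.7 CPM in si-NC. In bulk RNA, fewer cells of a kind, such as cells in S phase, and less RNA per cell cannot be told apart.

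The BRCA1 group split in the middle: BRCA1 and the helicase BRIP1 were lower, and BARD1, PALB2 and BRCA2 were not called. BRCA1, the scaffold that directs breaks to recombination (chromosome 17, 43044295 to 43170327, minus strand, GRCh38), was at 22.5, 26.9 and 22.6 CPM in the si-SNHG17 libraries and 38.3, 40.0 and 40.8 CPM in the controls. The groups did not overlap, and the knockdown mean was 60.4% of the control mean (log2 fold change -0.72, SE 0.109, edgeR adjusted p = 0.000142). BARD1, the partner with which BRCA1 forms a ubiquitin ligase, did not pass the test at 17.0, 12.1 and 13.2 CPM against 16.5, 16.1 and 12.6 CPM. Its log2 fold change was -0.10 with a 95% interval from -0.45 to 0.25, and the highest library of the 6 was a si-SNHG17 library. Thus the 2 subunits of 1 complex differed in their calls; the intervals of their fold changes do not overlap, although the difference between the genes was not tested.

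PALB2, the bridge between BRCA1 and BRCA2, lay between 18.4 and 21.3 CPM in all 6 libraries, and the interval of its log2 fold change ran from -0.27 to 0.25. BRCA2, the mediator that loads the recombinase on single strands, was low throughout, at 2.29, 2.32 and 2.28 CPM in si-SNHG17 and 3.42, 2.47 and 1.87 CPM in si-NC, and with an interval of -0.79 to 0.48 a change like that of BRCA1 was not detectable at this depth. BRIP1, a helicase that binds BRCA1 and is also the Fanconi gene FANCJ, was at 10.1, 12.5 and 11.3 CPM against 20.8, 20.9 and 14.6 CPM. The groups lay apart, with the third si-NC library nearest to the knockdown values (log2 fold change -0.72, SE 0.164, edgeR adjusted p = 0.00322).

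Among the paralogues and strand exchange partners of the recombinase, 4 of 6 were lower, and the group held the 2 lowest fold changes of the 35 tested members. RAD51AP1, which stimulates strand invasion (chromosome 12, 4538890 to 4560047, plus strand), was at 4.17, 3.83 and 3.30 CPM in the si-SNHG17 libraries and 13.7, 14.6 and 11.6 CPM in the controls. Each control library was above every knockdown library, and the knockdown mean was 28.4% of the control mean (log2 fold change -1.81, SE 0.181, edgeR adjusted p = 3.57e-06). RAD51D, a subunit of the BCDX2 paralogue complex (chromosome 17, 35092221 to 35119860, minus strand), followed at 8.13, 7.11 and 9.12 CPM against 22.8, 23.1 and 17.4 CPM. Its groups did not overlap either, and its log2 fold change was -1.38 (SE 0.160, edgeR adjusted p = 1.37e-05). RAD51D shares 8.0% of its exon bases with the readthrough gene RAD51L3-RFFL on the same strand, whose row went from 53.4 to 43.5 CPM (log2 fold change -0.29, edgeR adjusted p = 0.0438), so reads in the shared part could fall to either row.

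The other subunits of the same paralogue complexes had smaller fold changes. RAD51C, which sits in both complexes, was at 26.3, 32.8 and 31.5 CPM against 35.7, 36.1 and 34.8 CPM. Its groups lay apart but it did not pass (log2 fold change -0.23, 95% interval -0.47 to 0.00, edgeR adjusted p = 0.108). XRCC2, another BCDX2 subunit, overlapped between the groups at 3.91 to 5.74 CPM and 5.06 to 7.99 CPM (interval -0.85 to 0.14). XRCC3, the partner of RAD51C in the second complex, was lower at 17.9, 19.5 and 19.8 CPM against 29.5, 26.4 and 33.0 CPM (log2 fold change -0.63, SE 0.120, edgeR adjusted p = 0.000847). It shares 76.7% of its exon bases with KLC1 on the opposite strand. KLC1 rose from 138.7 to 166.5 CPM (log2 fold change 0.26, edgeR adjusted p = 0.0137), and since the strand setting of the counting is not given, reads of the pair cannot be told apart. RAD54L, the motor that remodels the joint molecule, was at 18.8, 18.1 and 15.5 CPM against 30.9, 29.4 and 34.0 CPM, with no overlap (log2 fold change -0.84, SE 0.120, edgeR adjusted p = 8.03e-05). It shares 25.1% of its exon bases with LRRC41 on the opposite strand, which stood at 78.0 and 68.8 CPM in knockdown and control (edgeR adjusted p = 0.0969).

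**Figure D2:**
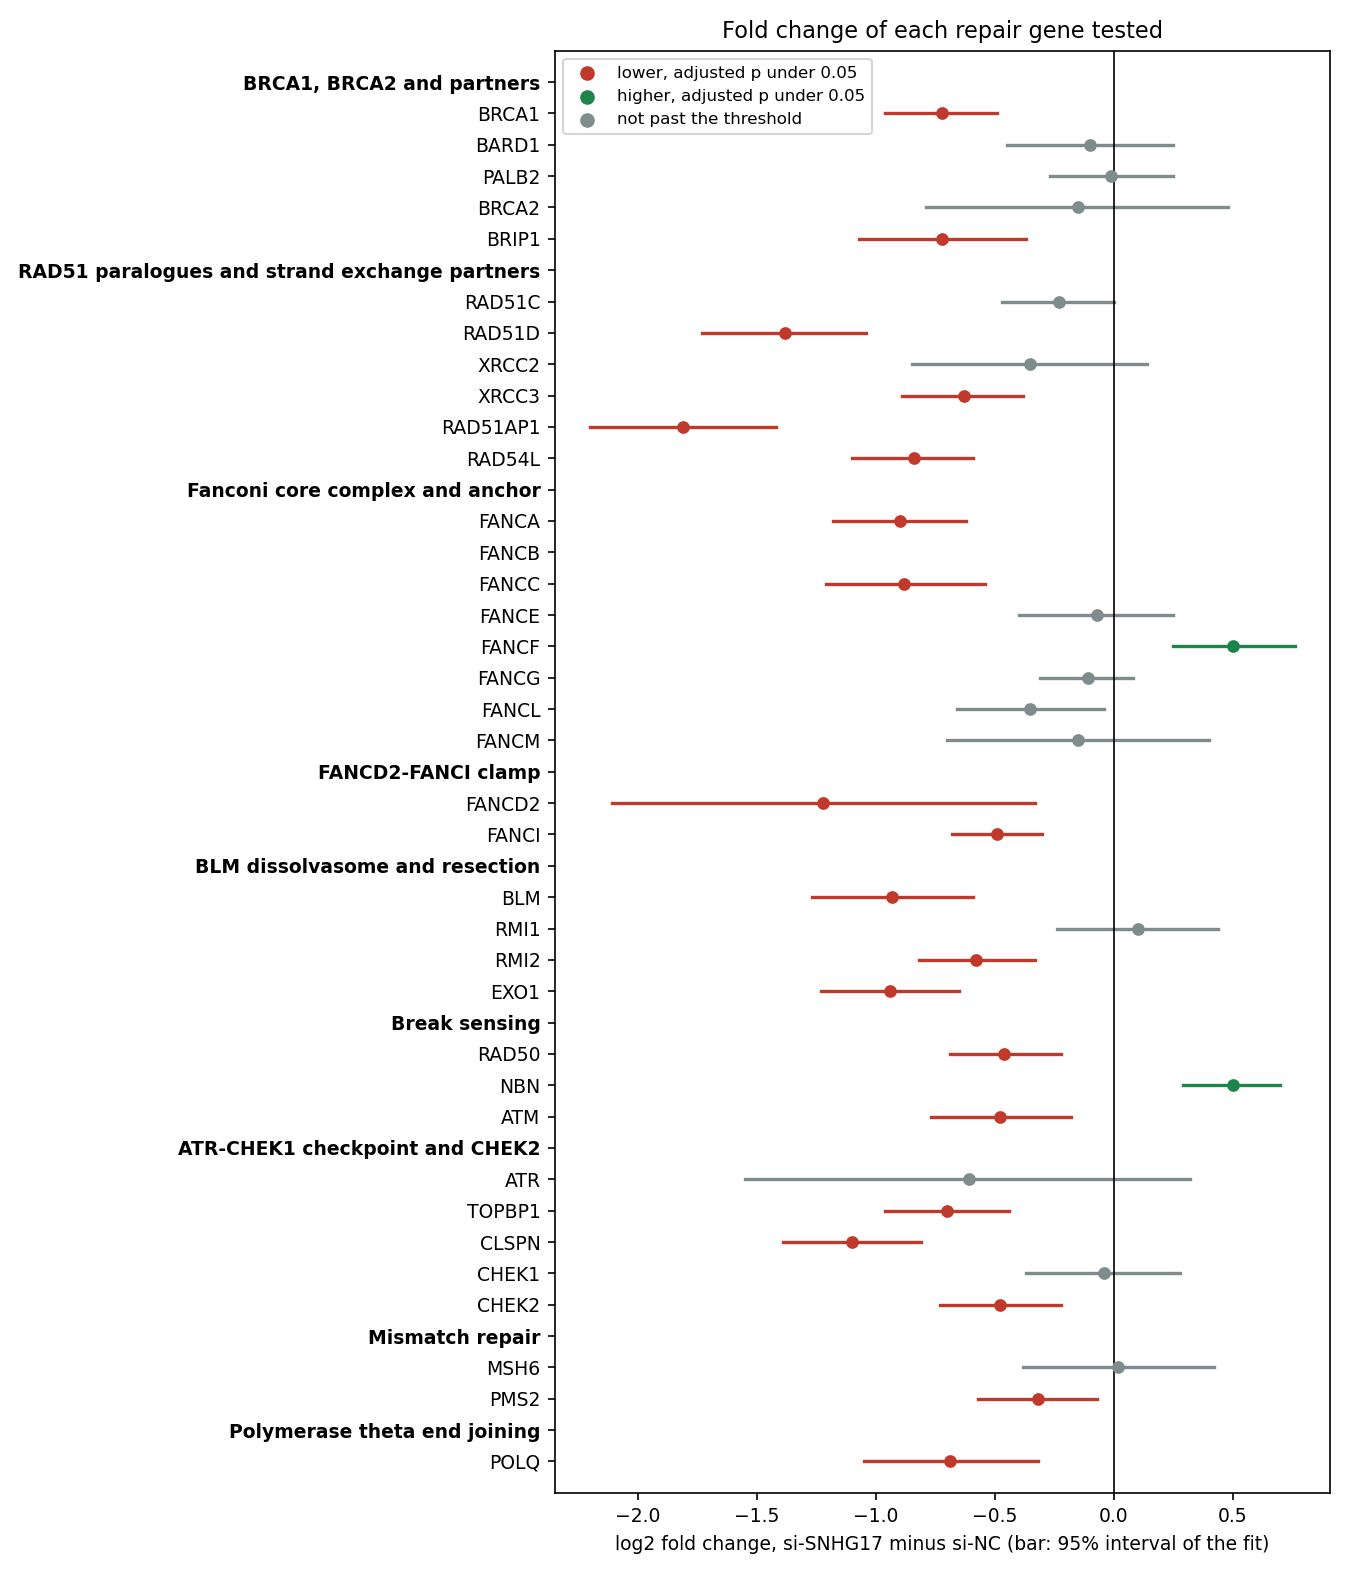
Log2 fold change of si-SNHG17 minus si-NC for the 35 tested members, grouped by role; points are fitted values and bars are 95% intervals. RAD51AP1 at -1.81 and RAD51D at -1.38 are the lowest, and FANCF and NBN at 0.50 are the only members past the threshold on the higher side.

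Calls in the Fanconi core complex were mixed. Of its 8 genes, counting the anchor FANCM, 2 were lower, 1 was higher, 4 did not pass and FANCB was not tested. That is 28.6% of the 7 tested lower and 14.3% higher, against 19.6% and 19.6% of all genes tested. The median log2 fold change of the 7 tested was -0.15. FANCA, the scaffold subunit, had 33.2, 34.8 and 23.5 CPM in the si-SNHG17 libraries and 54.1, 57.3 and 60.4 CPM in the controls. The groups were well apart (log2 fold change -0.90, SE 0.131, edgeR adjusted p = 9.82e-05); 23.6% of its exon bases are shared with ZNF276 on the opposite strand, whose row stood at 25.1 and 24.2 CPM. FANCC, a subunit of the substrate-binding module, fell from 17.4, 18.3 and 16.9 CPM to 9.18, 11.3 and 7.86 CPM (log2 fold change -0.88, SE 0.155, edgeR adjusted p = 0.000518).

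FANCF, an adaptor within the core complex, went the other way. It was at 27.7, 30.3 and 25.4 CPM in si-SNHG17 and at 19.8, 21.0 and 18.3 CPM in si-NC, so that every knockdown library was above every control (log2 fold change 0.50, SE 0.118, edgeR adjusted p = 0.00399). FANCC, FANCE and FANCF form 1 module of the ligase, and the 3 had fitted values of -0.88, -0.07 and 0.50. The interval for FANCE was -0.40 to 0.25. FANCG, the subunit that binds FANCA, did not pass at 63.1 to 65.7 CPM against 63.5 to 74.1 CPM. FANCL, the ubiquitin ligase itself, overlapped at 13.6 to 17.4 CPM against 17.1 to 22.5 CPM (interval -0.66 to -0.04, edgeR adjusted p = 0.0711), and it passed only without the second si-NC library (log2 fold change -0.45, edgeR adjusted p = 0.0421). FANCM, the DNA translocase that brings the complex to the lesion, had an interval of -0.70 to 0.40. FANCB, at 0 to 5 counts a library, was too low to test.

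Both subunits of the clamp that the core complex ubiquitinates were called lower, at very different levels. FANCI had 100.4, 108.2 and 97.1 CPM in si-SNHG17 and 152.6, 150.4 and 127.2 CPM in si-NC. The lowest control was above the highest knockdown library (log2 fold change -0.49, SE 0.0902, edgeR adjusted p = 0.000685). FANCD2 rested on 6, 22 and 6 counts against 28, 28 and 18 counts, or 0.626, 1.76 and 0.684 CPM against 3.19, 2.76 and 1.69 CPM. The second knockdown library was just above the third control, so the groups overlapped, and the fold was poorly set (log2 fold change -1.22, SE 0.414, edgeR adjusted p = 0.0310). The call was lost without si-SNHG17 replicate 1 or 3 or si-NC replicate 1 or 2, with edgeR adjusted p from 0.0857 to 0.119 and log2 fold changes from -1.16 to -0.96. It was -1.92 (edgeR adjusted p = 0.00595) without si-SNHG17 replicate 2 and -1.45 (edgeR adjusted p = 0.00959) without si-NC replicate 3.

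Of the genes that cut back ends and untangle joint molecules, 3 of 4 were lower. EXO1, the exonuclease used both in resection and in mismatch repair, was at 18.2, 16.5 and 19.3 CPM in the si-SNHG17 libraries and 36.7, 38.8 and 28.2 CPM in the si-NC libraries (log2 fold change -0.94, SE 0.135, edgeR adjusted p = 8.79e-05). BLM, the helicase that dissolves double Holliday junctions, was at 9.18, 9.27 and 7.41 CPM against 18.2, 17.5 and 14.0 CPM (log2 fold change -0.93, SE 0.160, edgeR adjusted p = 0.000418). Neither gene overlapped between the groups. RMI2, a small subunit of the BLM complex, went from 30.6, 32.7 and 31.6 CPM to 18.9, 21.6 and 23.2 CPM (log2 fold change -0.58, SE 0.114, edgeR adjusted p = 0.00116). RMI1, its direct partner, overlapped at 10.6 to 14.6 CPM against 11.0 to 12.7 CPM, with an interval of -0.24 to 0.44.

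The break sensors gave opposite calls within 1 complex. RAD50, the ATPase of the MRN complex, was lower at 46.5, 38.3 and 48.7 CPM against 57.8, 67.2 and 57.4 CPM (log2 fold change -0.46, SE 0.111, edgeR adjusted p = 0.00520). NBN, which links that complex to ATM, was higher at 61.4, 63.8 and 68.1 CPM against 49.3, 42.5 and 45.3 CPM (log2 fold change 0.50, SE 0.0953, edgeR adjusted p = 0.000956). The groups of RAD50 and of NBN lay apart, and the difference between the genes was not tested. MRE11, the other MRN subunit and not a member here, was lower, from 16.6 to 11.5 CPM (log2 fold change -0.54, edgeR adjusted p = 0.0230). ATM, the kinase that answers to double-strand breaks, had 22.1, 21.7 and 24.7 CPM against 35.5, 34.9 and 25.0 CPM; si-NC replicate 3 lay just above the knockdown libraries (log2 fold change -0.48, SE 0.139, edgeR adjusted p = 0.0143). The ATM call was lost without replicate 1 or 2 of either group, with edgeR adjusted p from 0.0517 to 0.0656. RAD50 shares 79.7% of its exon bases with AC116366.3 on the same strand, which was not analysed here.

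In the ATR branch the adaptors fell and the kinases were not called. CLSPN, or claspin, which presents CHEK1 to ATR (chromosome 1, 35720213 to 35769978, minus strand), had 8.45, 9.43 and 9.57 CPM in the si-SNHG17 libraries and 20.0, 19.9 and 19.0 CPM in the controls. The libraries within each group were close together and the groups lay far apart, at 46.5% of the control mean (log2 fold change -1.10, SE 0.134, edgeR adjusted p = 2.06e-05). TOPBP1, the activator of ATR, was at 35.2, 34.0 and 40.8 CPM against 58.3, 68.6 and 51.2 CPM (log2 fold change -0.70, SE 0.120, edgeR adjusted p = 0.000419). CHEK1, the effector kinase, had 11.7, 15.7 and 14.1 CPM against 14.0, 16.0 and 12.9 CPM, an interval of -0.37 to 0.28. ATR was close to the limit of detection at 3, 15 and 12 counts against 13, 14 and 17 counts. In CPM its groups lay just apart (log2 fold change -0.61, edgeR adjusted p = 0.290). Its interval of -1.55 to 0.32 spans most of the changes seen in this branch, so the missing call does not set ATR apart from CLSPN and TOPBP1. CHEK2, the effector of ATM, was lower at 19.8, 18.2 and 20.2 CPM against 27.1, 24.0 and 29.7 CPM, without overlap (log2 fold change -0.48, SE 0.121, edgeR adjusted p = 0.00648).

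Of the mismatch repair members, MSH6 was not called and PMS2 was called lower. MSH6, a subunit of the mismatch sensor, had 16.1, 10.6 and 14.8 CPM against 14.5, 15.7 and 10.6 CPM, with an interval of -0.38 to 0.42. It shares 16.2% of its exon bases with FBXO11 on the opposite strand. The FBXO11 row stood at 52.9 and 43.9 CPM in knockdown and control (edgeR adjusted p = 0.0539), and reads of the pair cannot be told apart. PMS2, a subunit of the endonuclease that acts after the mismatch sensor, was called lower at 19.2, 20.3 and 19.8 CPM against 26.1, 25.9 and 22.3 CPM (log2 fold change -0.32, SE 0.116, edgeR adjusted p = 0.0410). This call was lost without any 1 of the libraries but the third si-NC library (edgeR adjusted p 0.0752 to 0.138) and with the replicate number as a block (edgeR adjusted p = 0.0707). Reads can also be split between PMS2 and its near-identical copies: the row of PMS2P1 went from 21.4 to 11.6 CPM (log2 fold change -0.88, edgeR adjusted p = 0.000220) and that of PMS2CL from 7.58 to 8.50 CPM (log2 fold change 0.17, edgeR adjusted p = 0.482). POLQ, the polymerase of the error-prone end joining that competes with recombination, was lower at 11.2, 10.6 and 10.4 CPM against 20.4, 18.5 and 13.0 CPM (log2 fold change -0.69, SE 0.169, edgeR adjusted p = 0.00550).

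Across the 35 tested members, which share the same 6 libraries, Spearman's rho between the log2 fold change and the mean level was 0.06, and with exon length it was -0.23.

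Proliferation genes were lower in the same libraries. Of 16 proliferation markers 14 were lower and none was higher, with a median log2 fold change of -0.71; E2F1, the S phase transcription factor, was at 32.0% of its control mean (log2 fold change -1.64, edgeR adjusted p = 9.51e-08), and RRM2, the ribonucleotide reductase subunit, at 38.3% (log2 fold change -1.38, edgeR adjusted p = 1.10e-07). The summed proliferation level was 1983, 2031 and 2029 CPM against 3105, 3098 and 2815 CPM. Set against it, the members made up 36.7, 36.7 and 36.4 per 100 CPM of proliferation markers in si-SNHG17 and 32.8, 33.2 and 32.8 in si-NC. This ratio was higher in the si-SNHG17 libraries than in the si-NC libraries. In a ratio of summed levels the genes with the highest CPM weigh most, among them TOP2A and MKI67 in the proliferation sum. Of 18 genes known as p53 targets, 14 were higher and none lower, with a median of 0.81, led by the antiproliferative gene BTG2 (log2 fold change 2.18, edgeR adjusted p = 9.48e-10). The part that either group plays in the members' levels was not tested.

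**Figure D3:**
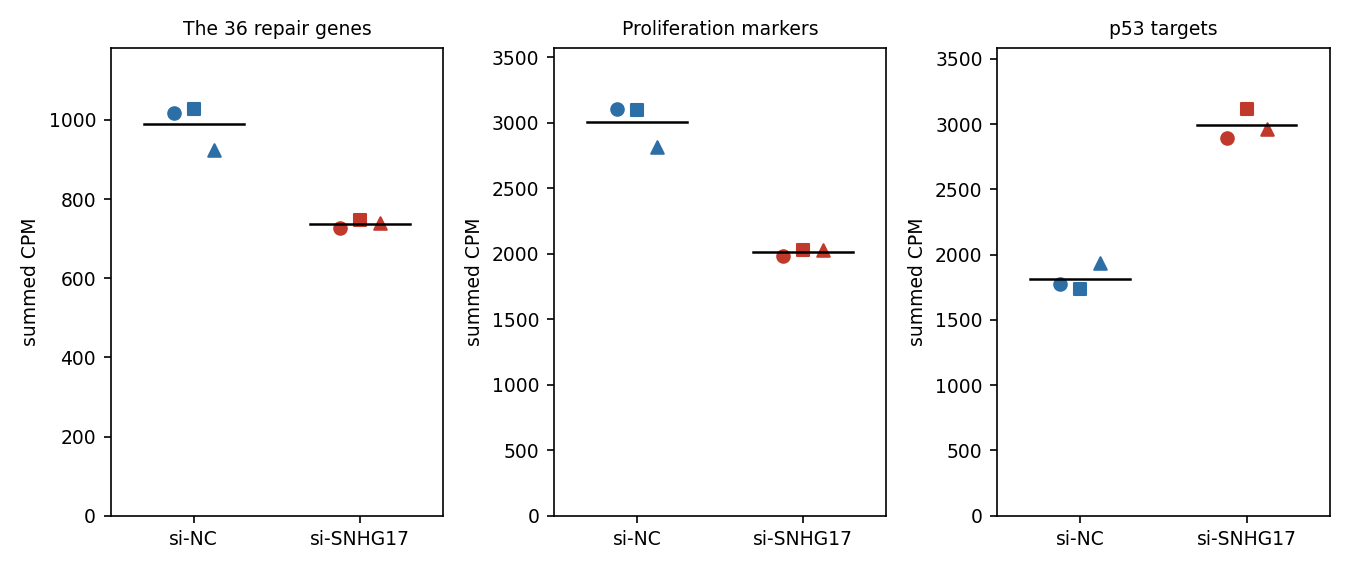
Summed level in each library, in CPM, of the 36 members, the 16 proliferation markers and the 18 p53 targets; each point is 1 library, its shape gives the replicate number and the line is the group mean. Members and proliferation markers are lower and p53 targets higher in all 3 si-SNHG17 libraries, without overlap between the groups.

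Other DNA repair genes were called in both directions. Over 116 genes of 6 other lists, 114 of them tested, 35 were lower (30.7%) and 15 higher (13.2%). Of all genes tested, 19.6% were lower and 19.6% higher. The median log2 fold change of the 114 genes was -0.10. Among 41 tested genes of the wider recombination and Fanconi machinery 16 were lower and 4 higher, with UIMC1, or RAP80, which brings BRCA1 to ubiquitin at breaks, at -0.94 (edgeR adjusted p = 1.51e-05) and SFR1, a helper of strand exchange, at 1.08 (edgeR adjusted p = 2.37e-05). Of the 7 other mismatch repair genes 3 were lower, among them HMGB1, a chromatin protein that takes part in excision, at -1.14 (edgeR adjusted p = 9.72e-08) and the ligase LIG1 at -0.32 (edgeR adjusted p = 0.00738). Of 18 other checkpoint and break signalling genes 5 were lower (27.8%) and 3 higher (16.7%). MDC1, the mediator that spreads damage signalling along chromatin, was at 11.3 CPM against 37.8 CPM (log2 fold change -1.74, edgeR adjusted p = 1.25e-06), and TIMELESS, the fork protection partner of claspin, was at 51.7 CPM against 138.2 CPM (log2 fold change -1.42, edgeR adjusted p = 9.56e-08). The phosphatase PPM1D, a p53 target that switches the checkpoint off, was at 0.97 (edgeR adjusted p = 0.000132).

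The lists for end joining and excision repair had medians between -0.10 and 0.00. Nonhomologous end joining had 3 lower (27.3%) and 2 higher (18.2%) of 11, with a median of 0.00. The Ku subunit XRCC5 was at -0.71 (edgeR adjusted p = 1.10e-05) and the gap-filling polymerase POLL at 0.75 (edgeR adjusted p = 5.08e-05). Nucleotide excision repair had 2 lower (11.1%) and 3 higher (16.7%) of 18, with a median of -0.01. Base excision repair had 6 lower (31.6%) and 3 higher (15.8%) of 19, with a median of -0.10. Its strongest call was FEN1, the flap endonuclease also used on lagging strands, at -0.80 (edgeR adjusted p = 6.58e-06). These shares stand beside 19.6% lower and 19.6% higher among all genes tested. Differences between the lists were not tested.

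**Figure D4:**
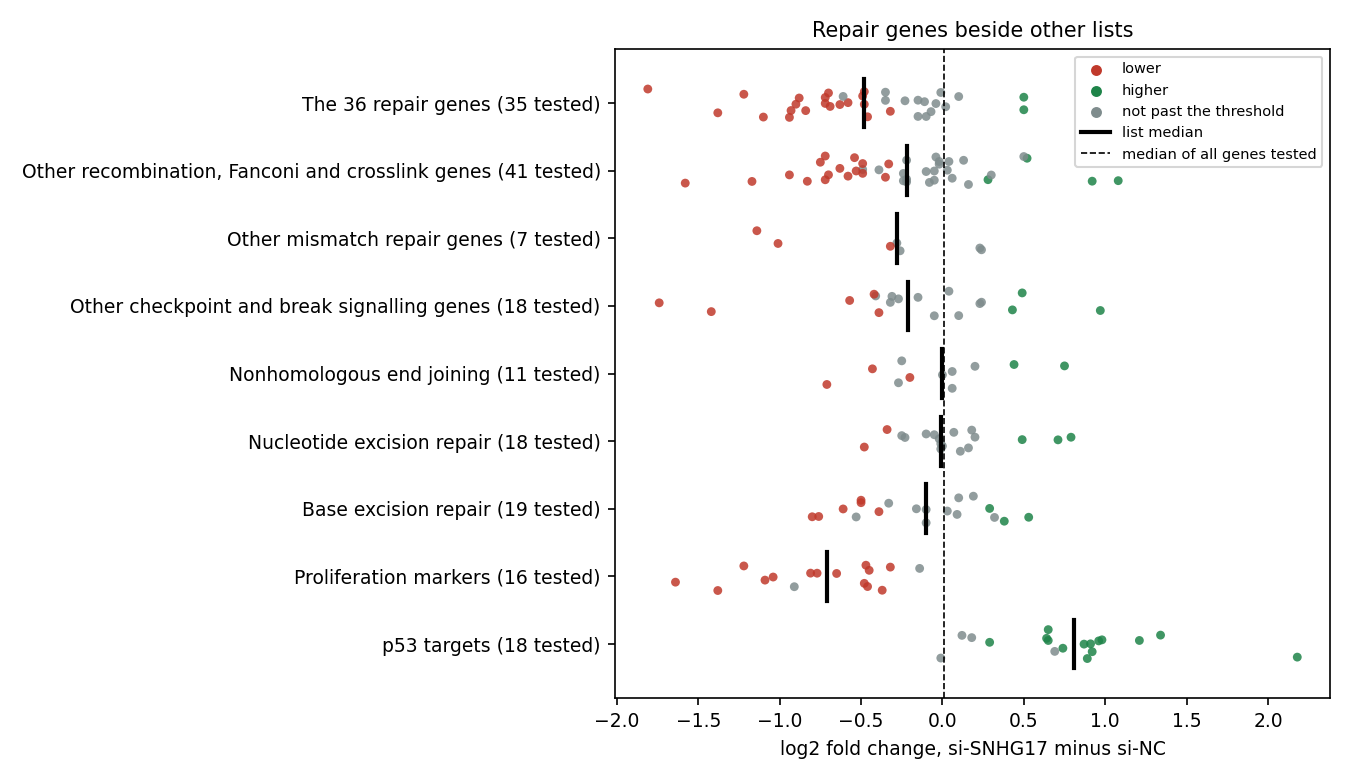
Log2 fold change of si-SNHG17 minus si-NC for each tested gene of the 36 members and of 8 other lists; points are genes, coloured by call, bars are list medians and the dashed line is the median of all genes tested. The members' median of -0.48 lies between those of the proliferation markers at -0.71 and the other repair lists, at -0.28 to 0.00.

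Several members start back to back with another gene, and 1 neighbour was lower. Of 12 partner genes with a row that start within 1000 bases upstream on the opposite strand, 9 could be tested, 1 was lower, 2 were higher and 6 did not pass. NBR2, which starts 193 bases from BRCA1, went from 8.18 to 5.46 CPM (log2 fold change -0.59, edgeR adjusted p = 0.0258), while NBR1, 82 bases from another BRCA1 start, was at 0.31 (edgeR adjusted p = 0.0173). NPAT, a histone gene activator that starts 429 bases from ATM, had a log2 fold change of -0.01 (edgeR adjusted p = 0.965) beside the -0.48 of ATM. AIMP2, 166 bases from PMS2, was at 0.10 (edgeR adjusted p = 0.421) and HSCB, 212 bases from CHEK2, at -0.36 (edgeR adjusted p = 0.0963).

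Promoter windows were searched for the E2F letters, the motif of the factors that drive S phase genes. Windows of 250 bases before to 50 after a RefSeq start (GRCh38.p14) were at hand for 33 of the 36 members, FANCI, NBN and RMI2 being the others, and every annotated start of a gene was used. The E2F letters searched on both strands were TTTCCCGC, TTTCGCGC, TTTGCCGC and TTTGGCGC. They stood in a window of 10 of the 33 members (30.3%), of 6.56% of the 9810 tested genes with a window and of 3.99% of all 27305 genes with a window. By call, 7 of 18 lower members held them (38.9%) and 3 of the 15 others (20%). The CHR letters TTTGAA or TTCGAA stood in 4 members (12.1%, against 15% of tested genes), CCAAT in 17 (51.5% against 42.4%) and the GC box GGGCGG, which can overlap E2F letters, in 27 (81.8% against 76.9%). Split by call, the CHR letters stood in 22.2% of lower members and 0% of the others. CCAAT stood in 61.1% and 40%, and the GC box in 94.4% and 66.7%. Each motif searched was thus more frequent among the lower members, and these differences were not tested. The lines below show 100 bases before to 15 from the start for 4 lower members with the letters, for MSH6, which has them and was not called, and for FANCF, which was higher and has none in this stretch; capitals mark the E2F letters on either strand.
CLSPN: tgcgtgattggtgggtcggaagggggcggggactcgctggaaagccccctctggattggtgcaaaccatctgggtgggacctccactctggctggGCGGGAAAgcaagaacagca
TOPBP1: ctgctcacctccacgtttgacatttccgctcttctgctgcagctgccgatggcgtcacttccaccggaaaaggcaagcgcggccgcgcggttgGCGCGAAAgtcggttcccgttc
EXO1: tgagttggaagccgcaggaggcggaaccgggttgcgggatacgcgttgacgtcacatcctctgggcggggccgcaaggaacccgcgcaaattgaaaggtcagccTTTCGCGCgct
FANCD2: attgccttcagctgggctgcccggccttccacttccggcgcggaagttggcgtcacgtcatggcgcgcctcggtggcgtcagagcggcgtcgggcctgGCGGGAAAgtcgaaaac
MSH6: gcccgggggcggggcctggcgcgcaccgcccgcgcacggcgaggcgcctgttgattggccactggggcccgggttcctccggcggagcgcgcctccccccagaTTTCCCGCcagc
FANCF: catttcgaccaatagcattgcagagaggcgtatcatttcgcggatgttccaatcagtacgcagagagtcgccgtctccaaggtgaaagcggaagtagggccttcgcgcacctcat
The letters run from base -5 to 2 in CLSPN, -7 to 0 in TOPBP1, 4 to 11 in EXO1, -2 to 5 in FANCD2 and 3 to 10 in MSH6, counting the annotated start as 0. CLSPN and FANCD2 carry the same letters, GCGGGAAA on the strand shown, as does MSH6 on the other strand, and the 3 had log2 fold changes of -1.10, -1.22 and 0.02. The stretches lie at chr1:35769964-35770078 (minus strand) for CLSPN, chr3:133661927-133662041 (minus) for TOPBP1, chr1:241848104-241848218 (plus) for EXO1, chr3:10026337-10026451 (plus) for FANCD2, chr2:47783045-47783159 (plus) for MSH6 and chr11:22625809-22625923 (minus) for FANCF. A match of letters is a description of the sequence and not a binding site.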

How the data were processed

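The deposited table holds raw read counts per gene for 6 libraries, with whole numbers that sum to a different total in each. Total RNA was turned into libraries by the Ion Total RNA-Seq Kit chemistry and read single-end on the Ion Proton, per the labels' protocols. The genome build is GRCh38 per the submitters' processing notes; the aligner, counter, annotation and strand setting were not given in the sources used here. Column names matched the sample titles.

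Counts were fitted across the whole table with edgeR 4.0.16 in R 4.3.3 (filterByExpr, TMM scaling, quasi-likelihood test, group as the only term), leaving 15614 of 54261 genes. The Benjamini-Hochberg adjusted p threshold was 0.05 over all genes tested. SE is the log2 fold change divided by the root of F; intervals are 95%. The fit was first tested on simulated data. A floor of 3 counts corresponds to 0.240 to 0.342 CPM. CPM are TMM-scaled and compared within a gene; intervals cover the spread between libraries only.

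The 36 members and the other lists (wider recombination and Fanconi, mismatch repair, checkpoint, end joining, nucleotide excision and base excision repair, proliferation, p53 targets, epithelial, immune and stromal markers) were chosen with earlier results of these data known. XPC and DDB2 stand in both the nucleotide excision and p53 lists. All members are accounted for. The 4 with the smallest p in each direction and 1 or more of each role are given in full, and from each other list up to 3 genes with the smallest p. Gene positions and promoter windows are from RefSeq GRCh38.p14, exon overlaps from GENCODE.

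The alternatives were to scale by upper quartile, by library totals or by DESeq2's size factors, to test with DESeq2 1.42.0 or limma-voom (limma 3.58.1), to change the count filter, to add a replicate block and to leave out each library. An offset for GC content and length, and leaving out mitochondrially encoded genes, were chosen after seeing the data. Same-numbered libraries had deviations that correlated at 0.06, -0.11 and -0.09, so the numbers were not taken as pairs.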

Additional observations from a re-analysis of the deposited data

How the results depend on the processing

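The count of 22 called members became 21 with library totals, DESeq2, no low-count filter and the replicate block, and 19 to 22 when each library was left out; asking for 2-fold as well left 4, and 3 to 6 with a library left out. The 21 members called with the block were all among the 22. The median log2 fold change of the members stayed between -0.55 and -0.44. SNHG17 ranged from -2.37 to -2.04. Of 560 values for single members, 526 kept their direction and side of the threshold, 17 lost the call (FANCD2, ATM and PMS2), 1 gained it (FANCL) and 16 changed sign. PMS2 was also not called with library totals (adjusted p = 0.0700), DESeq2 (adjusted p = 0.0776) or no filter (adjusted p = 0.0984).

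The sign changes were all in members that did not pass. With library totals PALB2 was at 0.0260, without the filter at 0.0022, and with the GC and length offset MSH6 was at -0.0284. With each library left out, BARD1 ran from -0.25 to 0.0122 (above 0 without si-SNHG17 replicate 2), PALB2 from -0.05 to 0.0531 (si-NC replicate 1, and 0.0086 without si-SNHG17 replicate 1), BRCA2 from -0.35 to 0.0839 (si-NC replicate 1) and FANCE from -0.17 to 0.0006 (si-SNHG17 replicate 1). FANCM ran from -0.35 to 0.1005 (si-SNHG17 replicate 2, and 0.0681 without si-NC replicate 2) and CHEK1 from -0.15 to 0.0674 (si-SNHG17 replicate 1, and 0.0420 without si-NC replicate 2). RMI1 ran from 0.20 down to -0.0430 (si-SNHG17 replicate 2) and MSH6 from 0.19 down to -0.1399 (si-NC replicate 3, with -0.1003 and -0.0291 without si-SNHG17 replicate 1 and 3).

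Among the other lists, the end joining count went from 5 to 3 with the replicate block and to 2 or 3 without any 1 of the libraries but si-NC replicate 3. The nucleotide excision count went from 5 to 8 with the GC and length offset and to 3 without si-SNHG17 replicate 1 or 2. The checkpoint count went from 8 to 5 without si-SNHG17 replicate 3, and the stromal count from 0 to 3 without a filter. Depth limits FANCB, ATR, FANCD2 and BRCA2, which had few counts in every library.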
